A study of Mus musculus with 6 samples.

Results

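The transcription factor NF-κB was followed through 10 genes, namely the subunit genes *Nfkb1*, *Nfkb2*, *Rela* and *Relb*, the inhibitor genes *Nfkbia*, *Nfkbie* and *Tnfaip3*, and the target genes *Tnfaip2*, *Birc3* and *Icam1*. They were picked by symbol from the 55367 gene symbols of each library, and all 10 were found and passed the filter on low values. RNA-seq was done on kidney cells binding Dolichos biflorus lectin (DBA), a plant lectin that marks collecting duct epithelium, taken at Day115 from 3 groups with 2 libraries each. The WT group was wild type and received saline, the ADPKD group was *Pkd1*-/- and received saline, and the ADPKD+MMPP group was *Pkd1*-/- and received injections of MMPP, a manganese-chelating melanin-like nanoparticle carrying polyethylene glycol. The *Pkd1*-/- mice were *Pkd1* fl/fl males with a *Cre/Esr1* transgene in which tamoxifen triggers the deletion, and the promoter of the transgene is not given in the sources used here. No label says how many mice stand behind a library, so that p-values measure only the spread between these libraries.

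NF-κB dimers are built from the products of *Rela*, *Relb*, *Rel*, *Nfkb1* and *Nfkb2*, and wait in the cytosol bound to IκB proteins. After a signal from receptors of TNF, IL-1 or Toll-like type, the IκB kinase complex marks IκB for destruction, and the dimer enters the nucleus and binds κB sites. Among the first genes switched on are its own brakes, IκBα from *Nfkbia*, IκBε from *Nfkbie* and the ubiquitin-editing enzyme of *Tnfaip3*, while a slower arm of the pathway processes the *Nfkb2* product and works with RelB. In kidney tubules the pathway is known for inducing chemokines and adhesion molecules during injury.

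Since feedback genes are themselves NF-κB targets, the DNA just upstream of the RefSeq starts of the members was read first. The 250 bases before each RefSeq start (GRCm38.p6) were searched on both strands for the κB consensus GGGRNNYYCC. In it R stands for A or G, Y for C or T and N for any base. Of all 32851 windows, 7.25% held this consensus. Windows were available for 8 members and not for *Nfkb1* and *Relb*. These members had 11 windows, as some genes have more than 1 start, and 7 of the 11 held the consensus. It was present in at least 1 window of 5 members, *Nfkb2*, *Nfkbia*, *Nfkbie*, *Tnfaip3* and *Tnfaip2*. No full match was found in these windows of *Rela*, *Birc3* and *Icam1*. Sites that depart from the pattern were not counted, such as TGGAAATTCC in the *Icam1* window, which differs in its first base. The absence of a match therefore does not show that a window lacks a κB site. The windows nearest to the annotated starts of the 3 inhibitor genes and of *Nfkb2* are shown, and each holds a match. These genes encode brakes and a subunit that the pathway itself induces. Bases of consensus matches are in capitals, and each window runs 5′ to 3′ on the gene's strand.
Nfkbia, minus strand, chr12:55492648-55492897: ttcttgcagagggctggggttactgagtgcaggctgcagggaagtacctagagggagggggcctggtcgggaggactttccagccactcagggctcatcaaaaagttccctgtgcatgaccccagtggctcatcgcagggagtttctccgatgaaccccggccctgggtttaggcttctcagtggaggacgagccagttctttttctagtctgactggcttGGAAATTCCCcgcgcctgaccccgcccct
Tnfaip3, minus strand, chr10:19015411-19015660: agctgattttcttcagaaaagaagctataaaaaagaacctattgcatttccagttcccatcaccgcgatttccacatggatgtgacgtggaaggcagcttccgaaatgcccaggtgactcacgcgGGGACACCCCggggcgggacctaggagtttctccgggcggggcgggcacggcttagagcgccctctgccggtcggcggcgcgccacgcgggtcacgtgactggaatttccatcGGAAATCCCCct
Nfkbie, plus strand, chr17:45555450-45555699: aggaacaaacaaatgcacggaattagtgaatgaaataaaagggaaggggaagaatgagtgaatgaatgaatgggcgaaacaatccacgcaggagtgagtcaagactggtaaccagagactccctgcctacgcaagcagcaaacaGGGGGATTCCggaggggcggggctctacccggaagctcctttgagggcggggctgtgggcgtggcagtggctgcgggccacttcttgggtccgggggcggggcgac
Nfkb2, plus strand, chr19:46304487-46304736: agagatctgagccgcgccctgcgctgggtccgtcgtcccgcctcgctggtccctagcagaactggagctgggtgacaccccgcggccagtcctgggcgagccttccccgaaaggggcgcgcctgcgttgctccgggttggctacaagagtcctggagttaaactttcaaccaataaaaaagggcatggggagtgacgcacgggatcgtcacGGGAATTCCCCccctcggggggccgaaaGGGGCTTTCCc
In *Nfkbia* the match lay from 29 to 20 bases before the start, and in *Nfkbie* from 106 to 97 bases before it. *Tnfaip3* held a match from 12 to 3 bases and another, on both strands, from 125 to 116 bases before the start. In *Nfkb2* overlapping matches covered 39 to 29 bases and a separate match 11 to 2 bases before the start. The windows of *Nfkb2* and, for the most part, those of *Tnfaip3* and *Tnfaip2* lie inside the gene spans given below, which begin at an earlier annotated start. A match is a description of the letters, and binding was not measured here.

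Expression is given as FPKM, a fragment number scaled by exon length and library size that allows levels of genes to be set beside each other within the WT and ADPKD libraries. In the ADPKD+MMPP libraries, orders and ratios between genes also carry an effect of gene annotation that is described with the treated comparison. The most common step in the low values was taken as a pair of reads, and all depths and read numbers rest on this. Depth was then 30.6 to 33.1 M reads in the WT and ADPKD libraries. It was 10.9 and 11.8 M reads in the ADPKD+MMPP libraries. The ADPKD+MMPP libraries stood apart also in their read numbers, of which 8.29% and 8.78% were odd against 37.4% to 39.1% in the others, and this difference in how values were made cannot be told apart from the treatment. *Pkd1*, the targeted gene, had 17.7 and 17.2 FPKM in WT, 7.64 and 8.91 FPKM in ADPKD, and was lower in ADPKD by limma (log2 fold change -0.998, adjusted p = 0.00566). In ADPKD+MMPP, of the same genotype as ADPKD, *Pkd1* had 4.34 and 3.99 FPKM, 1.99-fold below ADPKD (log2 fold change -0.84, adjusted p = 0.00155 from limma). The collecting duct marker *Aqp2* was at 677 FPKM or more in every library, while *Avpr2* was at 0.059 FPKM or less in every library and at 0 in ADPKD replicate 2.

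The 10 genes spanned a wide range of levels in WT cells. *Nfkbia* was highest at 885 ± 177 FPKM (SD, n = 2), above 99.9% of the 14862 tested genes in both WT libraries, and *Nfkb1* was lowest at 17.3 ± 1.83 FPKM (SD, n = 2). The order of the WT means was *Nfkbia*, *Tnfaip3*, *Icam1*, *Rela*, *Tnfaip2*, *Nfkb2*, *Birc3*, *Relb*, *Nfkbie* and *Nfkb1*. The libraries of *Tnfaip3* and *Icam1* overlapped in this order, as did those of *Icam1* and *Rela*, and the other neighbours did not. In ADPKD the order kept *Nfkbia* at the top with 902 ± 150 FPKM (SD, n = 2), and *Nfkb1*, *Birc3* and *Nfkbie* shared the bottom with overlapping neighbours between 26.2 and 31.8 FPKM. Among subunits, *Rela*, the activating partner of the classical dimer, had 3.49 and 3.94 times the FPKM of *Relb* in WT and 3.13 and 3.40 times in ADPKD.

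**Figure D1:**
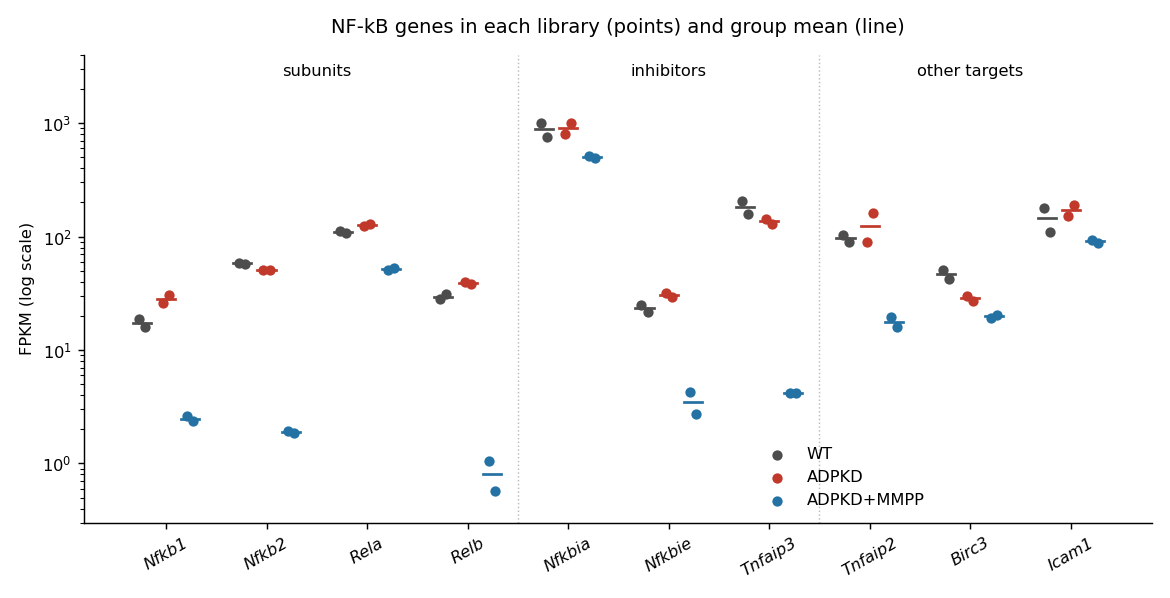
FPKM (log scale) of the 10 NF-κB genes in each of the 6 libraries, with points for libraries and lines for the mean of the 2 libraries of WT, ADPKD and ADPKD+MMPP. WT and ADPKD points lie near each other for each gene, and the ADPKD+MMPP points lie below both for all 10 genes, most for *Nfkb2*, *Relb* and *Tnfaip3*.

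Loss of *Pkd1* was compared first. In ADPKD against WT, *Nfkb1* rose, *Birc3* fell, and the other 8 genes did not pass the test. The test was limma on log2(FPKM + 1) over the 6 libraries, with calls where the change was 1.5-fold or more and the unadjusted P was under 0.05, and this scale understates changes of low genes. The members called, 1 higher and 1 lower, compare with 14.2% of all tested genes called higher and 12.5% called lower. The median log2 fold change was 0.24 over the members and 0.03 over all tested genes.

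*Nfkb1*, which encodes the precursor of the DNA-binding partner of RelA, lies at chr3:135584655-135691547 (GRCm38). It had 18.6 and 16.0 FPKM in WT and 26.2 and 30.6 FPKM in ADPKD, from 5973 to 11813 reads per library. Both ADPKD libraries lay above both WT libraries. The log2 fold change was 0.68 (standard error 0.14, adjusted p = 0.0212 from limma), or 1.64-fold higher in mean FPKM. The call rested on 2 libraries, since without WT replicate 2 the change was 0.58 and without ADPKD replicate 2 it was 0.57, both under the fold threshold.

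The other subunit genes had smaller differences. *Rela* (chr19:5637483-5648130) had 111.7 and 107.7 FPKM in WT and 124 and 129 FPKM in ADPKD. *Relb* (chr7:19606217-19629438) had 28.4 and 30.8 FPKM in WT and 39.7 and 37.8 FPKM in ADPKD. Their ADPKD libraries lay above the WT libraries, with log2 fold changes of 0.20 and 0.38 (adjusted p = 0.221 and 0.141 from limma), and neither was called. *Nfkb2* (chr19:46304320-46312385) had 58.8 and 57.2 FPKM in WT and 50.8 and 50.9 FPKM in ADPKD, so that its libraries did not overlap in the opposite direction (log2 fold change -0.19, adjusted p = 0.251 from limma). As a ratio within a library, *Nfkb1* was at 0.279 and 0.316 of *Nfkb2* in WT and at 0.515 and 0.601 of it in ADPKD.

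The inhibitor genes did not move as a group. *Nfkbia* (chr12:55489410-55492647) had 1010.5 and 759.7 FPKM in WT and 796 and 1008 FPKM in ADPKD, and the groups overlapped almost fully (log2 fold change 0.03, standard error 0.19, adjusted p = 0.919 from limma). The sign of this difference turned under other scalings. *Nfkbie* (chr17:45555703-45563169) had 25.2 and 21.6 FPKM in WT and 31.8 and 29.4 FPKM in ADPKD, a log2 fold change of 0.38 (adjusted p = 0.211 from limma). *Tnfaip3* (chr10:19000910-19015657) had 205 and 157 FPKM in WT and 142 and 129.9 FPKM in ADPKD. Its ADPKD libraries lay below the WT libraries, and the log2 fold change of -0.40 was not called (standard error 0.16, adjusted p = 0.124 from limma).

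Of the remaining targets, *Birc3*, which encodes a ubiquitin ligase that restrains cell death, lies at chr9:7848699-7873186. It had 50.8 and 42.4 FPKM in WT and 29.8 and 27.3 FPKM in ADPKD, and its groups did not overlap. *Birc3* was lower by a log2 fold change of -0.68 (limma standard error 0.14, adjusted p = 0.0192). Without WT replicate 1 the change was -0.56 and no longer called. *Icam1*, the adhesion molecule that holds leukocytes to epithelium and endothelium, lies at chr9:21015985-21028817. It had 179 and 109.5 FPKM in WT and 153 and 190.0 FPKM in ADPKD, so that the groups overlapped (log2 fold change 0.28, standard error 0.26, adjusted p = 0.453 from limma). Without WT replicate 1 its log2 fold change was 0.63 and called, and without WT replicate 2 it was -0.072. *Tnfaip2*, a TNF-induced gene at chr12:111442469-111455018, had 103 and 89.7 FPKM in WT and 90.3 and 159.7 FPKM in ADPKD. ADPKD replicate 2 alone was high, and without it the log2 fold change of 0.32 became -0.091, while without ADPKD replicate 1 it was 0.72 and called.

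By library order alone, the ADPKD libraries of 4 members lay wholly above WT and those of 3 members wholly below, where 35.5% and 31.5% of all tested genes were so ordered. Markers of other cell types differed between the same groups. Of the 14 tested leukocyte markers 13 were called higher in ADPKD, and the list's summed level was 83.9 to 93.0 FPKM in WT and 621 to 737 FPKM in ADPKD, with *Cd3e* listed at 0 in WT replicate 2. All 9 endothelial markers were called lower, from a sum of 1079 to 1257 FPKM in WT to 414 to 462 FPKM in ADPKD, and none was at 0. Of 7 fibroblast markers 5 were called higher and 1 lower, with sums of 84.1 to 105 FPKM in WT and 153 to 172 FPKM in ADPKD, and *Col1a1* went from 0.364 and 0.389 FPKM to 32.3 and 33.4 FPKM. Proximal tubule markers summed to 452 to 519.8 FPKM in WT and 1336 to 1411 FPKM in ADPKD, with 4 of 10 called higher and 1 lower. *Gpx3* made up most of these sums, at 378 and 396 FPKM in WT and 1274 and 1300 FPKM in ADPKD. By sign alone, 5 of the 10 markers had positive and 5 had negative log2 fold changes. Of 12 genes induced by tissue dissociation, 7 were called lower, with sums of 10931 to 11610 FPKM in WT and 5050 to 6927 FPKM in ADPKD. Leukocytes and endothelium also express *Icam1* and NF-κB genes, and the part of these cells in the values was not tested. In bulk samples fewer cells of a type and less RNA per cell cannot be told apart.

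**Figure D2:**
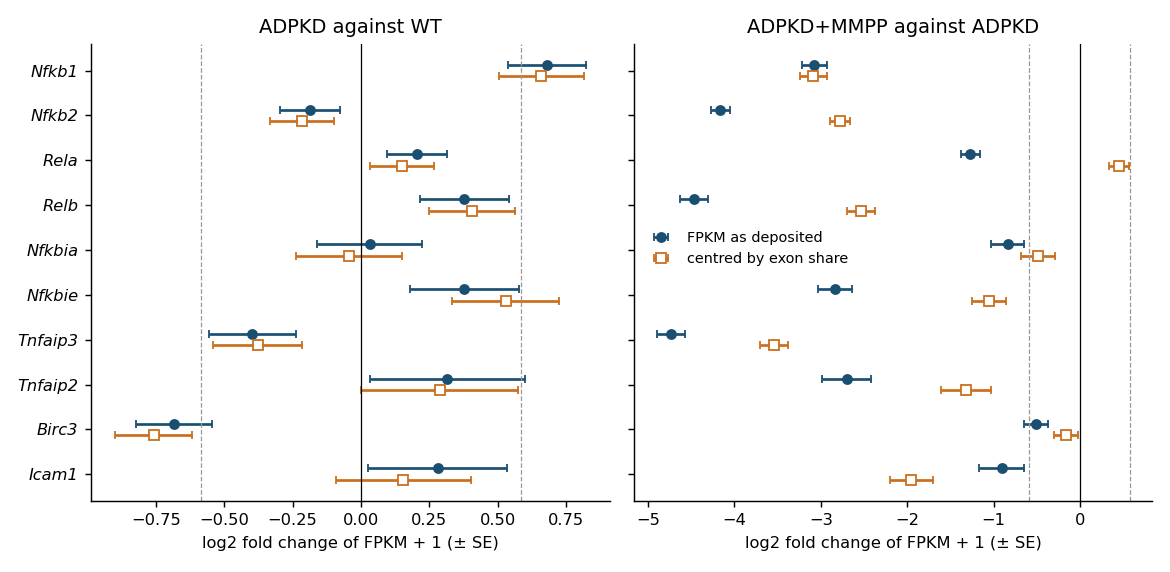
Log2 fold change of FPKM + 1 with its standard error for each gene in ADPKD against WT and in ADPKD+MMPP against ADPKD, as deposited (filled circles) and centred by exon share (open squares). Dashed lines mark a fold change of 1.5, the horizontal scales of the panels differ, and *Rela* changes sign on centring in the right panel.

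The treated mice were compared next. In ADPKD+MMPP against ADPKD, 9 of the 10 genes were called lower and none higher, and the treated libraries lay below both ADPKD libraries for all 10. Among all tested genes 43% were called lower and 27.9% higher, and the libraries were wholly lower for 51.7% and wholly higher for 36.1%. The median log2 fold change was -2.77 over the members and -0.36 over all tested genes. The falls were unequal, from 1.44-fold in mean FPKM for *Birc3* to 48.1-fold for *Relb*.

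The 4 subunit genes were called lower, to unequal extents. *Relb*, the partner in the slower arm, had 1.05 and 0.566 FPKM in the treated libraries, which came from 48 and 24 reads against 5106 and 4707 reads in ADPKD. Its log2 fold change was -4.47 (standard error 0.16, adjusted p = 2.21e-05 from limma). *Nfkb2* had 1.94 and 1.84 FPKM from 105 and 92 reads, a log2 fold change of -4.16 (standard error 0.11, adjusted p = 1.95e-05 from limma) and a 26.9-fold lower mean. *Nfkb1* had 2.60 and 2.36 FPKM from 370 and 310 reads, with a log2 fold change of -3.07 (standard error 0.14, adjusted p = 3.11e-05 from limma). *Rela*, in contrast, kept 51.2 and 52.4 FPKM from 1856 and 1756 reads, 2.44-fold below ADPKD (log2 fold change -1.27, adjusted p = 0.000184 from limma). The ratio of *Rela* to *Relb* was therefore 48.9 and 92.5 in the treated libraries, and genes annotated like them had medians of -1.31 and -1.64.

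The inhibitor genes differed among themselves too. *Tnfaip3* fell furthest of all members on the log2(FPKM + 1) scale, to 4.15 and 4.16 FPKM, a log2 fold change of -4.73 (standard error 0.16, adjusted p = 2.21e-05 from limma). *Nfkbie* had 4.28 and 2.71 FPKM, a log2 fold change of -2.84 (adjusted p = 9.01e-05 from limma). *Nfkbia* remained the highest member at 509.6 and 494 FPKM, still above 99.4% of tested genes, and its log2 fold change was -0.83 (standard error 0.19, adjusted p = 0.00877 from limma). Set against *Tnfaip3*, *Nfkbia* was at 4.83 to 4.93 times its FPKM in WT, at 5.59 and 7.76 times in ADPKD, and at 118.7 and 122.8 times in the treated libraries, where genes annotated like *Nfkbia* and like *Tnfaip3* themselves had median log2 fold changes of -0.098 and -1.02 against ADPKD. The call of *Nfkbia* was lost under TMM factors, at -0.52.

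Among the other targets, *Tnfaip2* had 19.4 and 16.0 FPKM after treatment, a log2 fold change of -2.70 (standard error 0.28, adjusted p = 0.000365 from limma). *Icam1* had 94.0 and 86.9 FPKM, a log2 fold change of -0.91 (standard error 0.26, adjusted p = 0.0189 from limma), and this call was lost without ADPKD replicate 2, at -0.75, without ADPKD+MMPP replicate 2, at -0.85, and under TMM factors, at -0.59. *Birc3* had 19.2 and 20.3 FPKM, and its log2 fold change of -0.51 was under the fold threshold. With libraries rescaled to a common sum, *Birc3* was called at -0.80. The order of levels after treatment was *Nfkbia*, *Icam1*, *Rela*, *Birc3*, *Tnfaip2*, *Tnfaip3*, *Nfkbie*, *Nfkb1*, *Nfkb2* and *Relb*, with overlap only between *Birc3* and *Tnfaip2* and between *Tnfaip3* and *Nfkbie*.

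How far a gene fell went with how its exons are annotated. Over 12375 tested protein-coding genes, the change after treatment followed the percentage of exon sequence found in exactly 1 annotated transcript, with a Spearman rho of 0.649, and the rho over the 10 members was 0.455. These are correlations across genes, which share the libraries. This share was 11.6% in *Relb*, 20.4% in *Nfkbie*, 29.6% in *Rela*, 30.9% in *Nfkb2*, 33.6% in *Tnfaip2*, 39.3% in *Tnfaip3*, 58.4% in *Nfkbia*, 61.8% in *Birc3*, 65.9% in *Nfkb1* and 91.3% in *Icam1*. In ADPKD against WT the rho over protein-coding genes was 0.0451.

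Each member was therefore set beside the genes of like share. *Rela* fell by no more than these, with -1.27 against a median of -1.31 over 618 genes. The bin that holds *Birc3* and *Nfkbia* had a median of -0.098, and these genes differed from it by -0.41 and -0.74. *Nfkb1* differed by -3.25 from a median of 0.17, *Icam1* by -1.98 from a median of 1.07, and *Tnfaip3* by -3.72 from a median of -1.02. The differences were -3.11 for *Nfkb2*, -2.83 for *Relb*, -1.65 for *Tnfaip2* and -1.48 for *Nfkbie*, from medians of -1.06, -1.64, -1.06 and -1.35. *Nfkb1* and *Icam1* thus fell while genes of like annotation had medians above 0.

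With every library centred within 20 bins of this share, 7 of the 10 genes were called lower after treatment, where 24.5% of the 12375 genes were called lower and 33.8% higher. *Tnfaip3* was then at -3.55, *Nfkb1* at -3.09, *Nfkb2* at -2.78, *Relb* at -2.53, *Icam1* at -1.95, *Tnfaip2* at -1.32 and *Nfkbie* at -1.05. *Nfkbia* at -0.49 and *Birc3* at -0.16 were not called, and *Rela* turned to 0.45, also not called. The median of the 10 was -1.63, and that of all genes in this fit was 0.15. In ADPKD against WT the centred fit called *Nfkb1* and *Birc3* again, at 0.66 and -0.76, where 13.7% of genes were called higher and 13.6% lower.

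**Figure D3:**
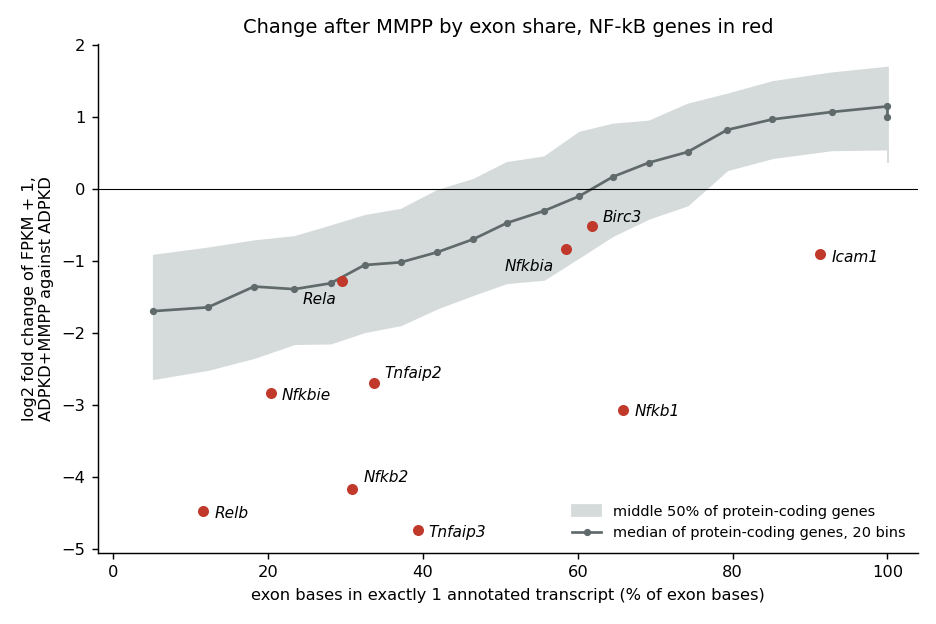
Log2 fold change of FPKM + 1 in ADPKD+MMPP against ADPKD by the percentage of exon bases in exactly 1 annotated transcript, with the 10 NF-κB genes in red and the median (line) and middle 50% (band) of 12375 protein-coding genes in 20 bins. *Rela* sits on the line, *Nfkbia* and *Birc3* inside the band, and the other 7 genes below the band.

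Against WT, the treated libraries were lower for all 10 genes, as 53% of all tested genes were. Of the 10, 9 were called lower and none higher, where 43.8% of all tested genes were called lower and 30.1% higher, and 38.9% had wholly higher libraries. *Icam1* was the exception at -0.63 (adjusted p = 0.0638 from limma), with the treated 94.0 and 86.9 FPKM below the WT 179 and 109.5 FPKM. *Birc3* had fallen in ADPKD and was lower still here, at -1.19 (adjusted p = 0.000483 from limma). *Nfkb1*, the member that rose in ADPKD, was at -2.39 against WT, and its treated level of 2.48 ± 0.171 FPKM (SD, n = 2) was 6.98-fold below the WT mean. The comparisons with WT share its libraries, so the rise and this fall are not independent. Centred by exon share, 7 genes were called lower against WT, among them *Icam1* at -1.80, and *Rela* was called higher at 0.60, where 26.8% and 35.8% of genes were called lower and higher.

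The rest of the pathway was read from 69 further genes, of which 68 were tested. In ADPKD against WT, 20 (29.4%) were called higher and 7 (10.3%) lower, with a median log2 fold change of 0.22. Among all tested genes 14.2% were called higher and 12.5% lower, with a median of 0.03. Of 24 targets other than the members, 12 were higher and 2 lower, with a median of 0.60. The monocyte chemokine gene *Ccl2* had 5.49 and 6.47 FPKM in WT and 85.1 and 127 FPKM in ADPKD, a log2 fold change of 3.91 (adjusted p = 0.00186 from limma). *Gadd45b*, a stress-induced gene, fell from 1130.1 and 1036 FPKM to 612 and 419.8 FPKM (log2 fold change -1.09, adjusted p = 0.0143 from limma). Among receptors 4 of 12 were higher and 1 lower. The IL-18 receptor gene *Il18r1* went from 0.306 and 0.221 FPKM to 8.09 and 14.7 FPKM, a log2 fold change of 3.24 (adjusted p = 0.00308 from limma), and *Tlr4*, the endotoxin receptor gene, was at -0.66. The leukocyte markers given above rose between the same groups.

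Between receptor and NF-κB stand the signal carriers. Of 22 adaptor, ubiquitin ligase and kinase genes, 1 was higher and 4 lower in ADPKD, with *Traf6*, a ligase of the IL-1 and Toll-like receptor route, at 0.60, a call that centring by exon share ended at 0.48, and *Birc2*, the close relative of *Birc3*, at -1.28 (adjusted p = 0.00562 from limma). *Birc2* had 47.3 and 37.7 FPKM in WT and 18.2 and 15.4 FPKM in ADPKD. Of the 10 genes for the subunit *Rel*, further IκB proteins and brakes of the pathway, 3 were higher and none lower. Of all tested genes 14.2% were called higher and 12.5% lower. These shares were 4.55% and 18.2% in the adaptor list and 30% and 0% in this list. *Tnip1*, whose product works with that of *Tnfaip3*, had the largest rise, at 0.83 (adjusted p = 0.0658 from limma).

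After MMPP, 37 of the 68 genes (54.4%) were called lower and 12 (17.6%) higher, and the median was -0.65. Among all tested genes 43% were called lower and 27.9% higher, with a median of -0.36. In the list of *Rel*, further IκB proteins and brakes, *Nfkbiz*, an atypical IκB gene, went from 184 and 210.3 FPKM to 5.60 and 6.36 FPKM. Its log2 fold change was -4.82 (adjusted p = 2.63e-05 from limma). In this list 6 of 10 genes were lower, with a median of -1.89. *Otulin*, a deubiquitinase gene, was the 1 gene of it called higher, at 0.75. Among adaptors and kinases 15 of 22 were lower, *Irak2* at -3.02 furthest, and 4 were higher with *Tab1* at 1.53.

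Receptors and targets were mixed after treatment. Of 12 receptors 4 were lower, led by the IL-1 receptor gene *Il1r1* at -2.50, and 3 higher, led by the lymphotoxin receptor gene *Ltbr* at 1.43. Of 24 targets 12 were lower and 4 higher. Called lower were 33.3% of receptors and 50% of targets, against 43% of all tested genes. Called higher were 25% and 16.7% of these lists, against 27.9%. *Irf1*, an interferon response factor gene, fell from 85.9 and 53.0 FPKM to 1.64 and 1.59 FPKM, a log2 fold change of -4.71 (adjusted p = 3.71e-05 from limma). *Il1b*, a cytokine gene of myeloid cells, instead rose from 15.0 and 51.5 FPKM to 112 and 105 FPKM, a log2 fold change of 1.92 (adjusted p = 0.0247 from limma). Centred by exon share, 29 of the 68 genes were lower and 12 higher, where 24.5% of the 12375 genes were called lower and 33.8% higher. *Nfkbiz* at -3.04, *Irf1* at -3.60, *Irak2* at -1.30 and *Il1r1* at -0.86 were then still called lower and *Otulin* and *Il1b* higher, while *Ltbr* at 0.32 and *Tab1* at 0.41 lost their calls.

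**Figure D4:**
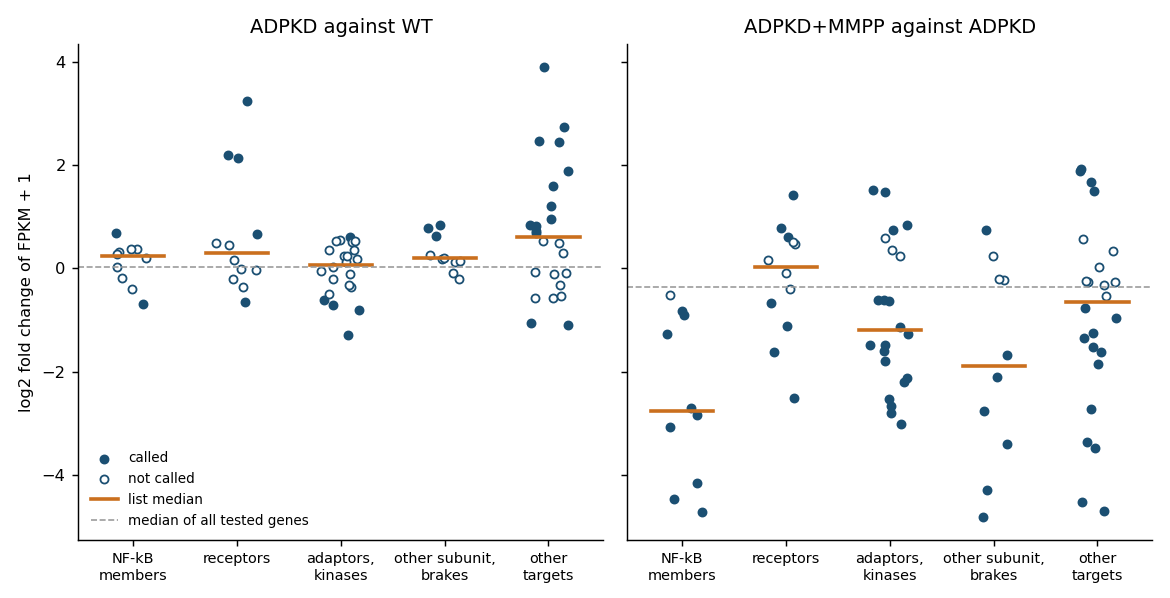
Log2 fold change of FPKM + 1 of the 10 members and of 68 other NF-κB pathway genes in 4 lists, in ADPKD against WT and in ADPKD+MMPP against ADPKD, with filled points for called genes, orange lines for list medians and a dashed line for the median of all tested genes. The left panel shows the members near 0 and many other targets above it. In the right panel the medians are lowest for the members and for the list of *Rel*, further IκB proteins and brakes.

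Cell type markers also differed in the treated libraries. The leukocyte list summed to 1243 and 1293 FPKM, with 6 of 14 tested markers called higher than in ADPKD and 6 lower, and *Itgam* was listed at 0 in both treated libraries. *Lyz2* was at 568 and 565 FPKM against 188 and 224 FPKM in ADPKD, while *Csf1r* was at 0.38 and 0.19 FPKM against 17.0 and 25.6 FPKM. The largest treated values of the list were those of *Lyz2*, *C1qa*, *C1qb* and *C1qc*, all called higher as deposited. Centred by exon share, these were at 0.30, -0.17, -0.14 and -0.033 and not called, while *Csf1r* at -2.71 stayed lower. In the centred fit 3 of the 14 leukocyte markers were called higher and 2 lower. Endothelial markers summed to 124 FPKM in each treated library, with 7 of 9 called lower than in ADPKD as deposited. Proximal tubule markers summed to 9040 and 9520 FPKM against 1336 and 1411 FPKM in ADPKD, and 7 of 10 were called higher. *Gpx3* again made up most of the sums, at 8789 and 8321 FPKM after treatment. All 6 intercalated cell markers were called lower in ADPKD than in WT and higher after treatment than in ADPKD, with sums of 223 and 233 FPKM in WT, 50.7 and 22.6 FPKM in ADPKD and 178 and 188 FPKM after treatment. Principal cell markers summed to 2482 and 942 FPKM in ADPKD and to 5417 and 5441 FPKM after treatment, thick ascending limb markers to 595 and 188 FPKM and to 132 and 129 FPKM, and fibroblast markers to 153 and 172 FPKM and to 163 and 170.4 FPKM. Of these lists, 4 of 7 principal cell markers were called higher after treatment and 2 lower, and 1 of 4 thick ascending limb markers was called lower. Among all tested genes 27.9% were called higher and 43% lower. Centred by exon share, 1 principal cell marker was called higher and 1 lower, and 3 of 4 thick ascending limb markers higher and 0 lower. All 10 proximal tubule and all 6 intercalated cell markers were then called higher, and all 9 endothelial markers lower. Of all genes in the centred fit 33.8% were called higher and 24.5% lower. Among the 7 fibroblast markers *Col1a1* and *Col3a1* were called higher as deposited, at 0.98 and 0.99, while *Pdgfra*, *Pdgfrb* and *Dcn* were called lower, at -3.01, -4.21 and -2.51. With centring *Col1a1* at -0.065 and *Col3a1* at 0.57 were not called, and 1 fibroblast marker was called higher and 4 lower. The dissociation genes, which respond to handling as *Nfkbia* and *Tnfaip3* can, summed to 12356 and 12504 FPKM, with 7 of 12 called higher and 4 lower as deposited. With centring 7 of them were called higher and 1 lower. The part of these differences in the fall of the NF-κB genes was not tested.

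**Figure D5:**
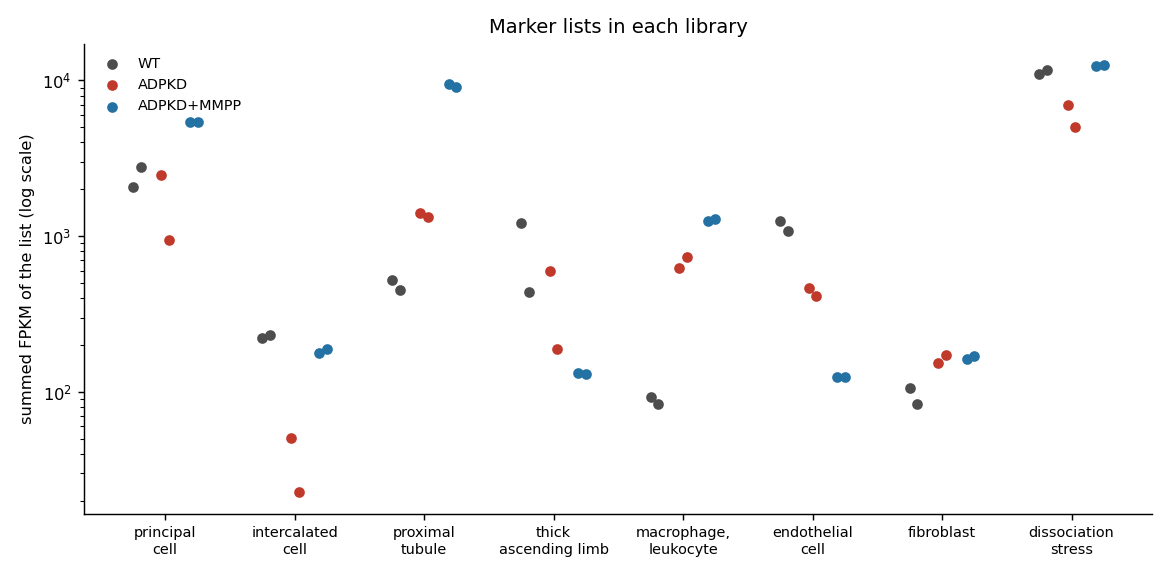
Summed FPKM (log scale) of lists of cell type and dissociation markers in each of the 6 libraries. The leukocyte sum is lowest in WT, the endothelial sum falls from WT to ADPKD to ADPKD+MMPP, and the proximal tubule sum is highest in ADPKD+MMPP.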

How the data were processed

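The authors aligned reads to GRCm38 (mm10) with HISAT2 2.1.0, counted mapped reads with featureCounts 1.6.0 and deposited FPKM for each of the 6 libraries. The annotation release and the step from counts to FPKM are not given in the sources used here. The authors used DESeq2, which was not applied here because FPKM are not counts. Positions, exon lengths and transcripts came from GENCODE vM21 (53186 symbols matched), and FPKM times exon length gave read numbers, of which 98.3% to 98.9% of the low values were whole within 0.05 reads. These numbers bound counting error only.

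The 14862 genes that reached 1 FPKM in 2 or more libraries were fitted in limma 3.58.1 (R 4.3.3) on the log2(FPKM + 1) scale, all 6 libraries together, with Benjamini-Hochberg adjustment over all of them. Calls used the fold change and P thresholds of the study. The fit was tested on simulated data. The members, the lists of other pathway genes and the markers were chosen with earlier results of these data known. Of the other pathway genes, the called genes with the largest rise and fall per list and comparison and at least 5 FPKM in a group mean were named, together with any marker or further gene that a count turned on. Alternatives covered the pseudocount, filter, scaling, trend, libraries in the fit, thresholds, a replicate block, leaving out each library and centring within 20 bins of exon share. Promoter sequences are RefSeq's.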

Additional observations from a re-analysis of the deposited data

How the results depend on the processing

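The fall of the members after MMPP treatment kept its direction under each alternative except for *Rela*, which turned to 0.45 against ADPKD and 0.60 against WT when libraries were centred by exon share. That centring also gave 1 member called higher against WT, in place of 0. The members called lower after treatment stayed between 7 and 10 in both comparisons, and their median against ADPKD was -3.04 with a common library sum, -2.48 with TMM factors and -1.63 with centring. The median of all tested genes moved from -0.36 to -0.55, -0.15 and, with quantile normalization, 0.10.

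ADPKD against WT depended more on the processing. Members called higher and lower were 0 and 0 at a fold change of at least 2, and 2 were lower with quantile normalization, which added *Tnfaip3* at -0.59. Leaving out single libraries moved the number called higher from 0 to 2, and likewise the number called lower from 0 to 2, as given by gene in the report. *Tnfaip3* was called at -0.59 without WT replicate 2. The log2 fold change of *Nfkbia* was -0.055 with a common sum, -0.0045 with TMM factors, -0.013 with quantile normalization and -0.044 with centring, and ranged from -0.17 to 0.24 with single libraries left out. Over the same omissions *Icam1* ranged from -0.072 to 0.63 and *Tnfaip2* from -0.091 to 0.72. The causes were not tested.

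Deviations of same-numbered replicates from their group means correlated across genes at 0.129 between WT and ADPKD. The correlation was 0.0137 between ADPKD and ADPKD+MMPP and -0.00796 between WT and ADPKD+MMPP. The labels do not say what the numbers stand for, and with 2 libraries per group these values cannot exclude a pairing. With a replicate block the calls over all genes were 4055 in place of 3970 in ADPKD against WT, 10595 in place of 10540 in ADPKD+MMPP against ADPKD and 11038 in place of 10984 against WT, and the numbers of members called did not change. In the treated libraries *Relb* rested on 48 and 24 reads, *Nfkb2* on 105 and 92, and *Nfkbie* on 154 and 90, so depth limits the precision of their treated levels.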
